A study of Mus musculus with 9 samples.

Results

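The brush border digestive enzymes studied here are 9 genes set by name: the disaccharidases Lct, Sis, Mgam and Treh, the peptidases Anpep, Enpep, Dpp4 and Ace, and the phosphatase Alpi. They were chosen with earlier results of these data known, though by name and not by a cutoff on measured values. All 9 were among the 29288 genes of the deposited count table, and all 9 passed the filter on low counts that left 18933 genes for testing. Their raw counts ran from 462 reads (Treh, control replicate 2) to 131317 reads (Anpep, 18h-αGal replicate 1).

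RNA was sequenced in bulk from intestinal epithelial cells (IECs) of proximal small intestinal crypts, sorted as live cells positive for EpCAM and negative for CD45, CD31 and Ter119. All mice were female wild-type C57BL/6J, and the study's methods put its mice at 7 to 10 weeks of age. Into the peritoneum, 3 control mice received phosphate-buffered saline (PBS) and were sampled at 18 h, 3 mice received 2 µg of α-galactosylceramide (αGalCer) and were sampled at 18 h (18h-αGal), and 3 further mice received 2 µg of αGalCer and were sampled at 72 h (72h-αGal). αGalCer is a lipid antigen that activates natural killer T (NKT) cells, and the comparison asks how the epithelium changes once these cells are activated. Controls were sampled at 18 h only, so at 72 h the treatment and the time of sampling cannot be told apart.

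The brush border is the layer of microvilli on the luminal face of the enterocyte. Its membrane carries enzymes that complete digestion: disaccharidases release simple sugars from lactose, sucrose, starch products and trehalose, peptidases trim peptides to amino acids and short peptides, and alkaline phosphatase removes phosphate groups. Enterocytes make most of these transcripts as they leave the crypt and mature on the villus, and the factors HNF1, HNF4, CDX2 and GATA4 are known to bind the promoters of several of these genes.

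The promoters of Lct and Sis are shown because these transcripts varied least alike among the 36 pairs of members across the libraries. In GRCm38 the Lct gene (ENSMUSG00000026354) spans chr1:128284756-128328318 and the Sis gene (ENSMUSG00000027790) chr3:72888557-72967863, both on the minus strand. Alpi also lies on chromosome 1 and Enpep on chromosome 3, while Dpp4, Mgam, Anpep, Treh and Ace lie on chromosomes 2, 6, 7, 9 and 11. Each line gives the 250 bases before the gene's start in RefSeq, build GRCm38.p6, 5′ to 3′ on the gene's own strand. Capitals mark matches on either strand to the HNF1 half-site GTTAAT, the CDX motif CNATAAA, the GATA motif AGATAA or the HNF4 motif CAAAGTCCA.
Lct promoter, chr1:128328319-128328568, minus strand: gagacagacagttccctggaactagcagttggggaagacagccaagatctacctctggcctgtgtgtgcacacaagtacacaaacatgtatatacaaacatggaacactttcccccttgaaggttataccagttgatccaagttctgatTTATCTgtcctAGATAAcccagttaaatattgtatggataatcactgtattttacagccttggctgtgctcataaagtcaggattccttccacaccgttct
Sis promoter, chr3:72967864-72968113, minus strand: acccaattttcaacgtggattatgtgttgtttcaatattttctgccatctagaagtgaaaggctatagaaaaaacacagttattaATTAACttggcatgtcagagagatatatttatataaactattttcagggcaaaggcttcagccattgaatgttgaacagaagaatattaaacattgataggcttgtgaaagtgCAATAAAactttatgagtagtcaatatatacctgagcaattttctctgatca
The Lct window held 2 GATA matches and none of the others, and the Sis window held 1 HNF1 and 1 CDX match. Among the 9 members, the HNF1 letters were present in 1 window (Sis), CDX in 3 (Sis, Dpp4 and Alpi), GATA in 3 (Lct, Mgam and Dpp4) and HNF4 in 2 (Treh and Alpi). Of 32851 promoters of the same length, 6.43% held the HNF1 letters, 9.81% CDX, 9.99% GATA and 0.384% HNF4. The windows of Anpep, Enpep and Ace held none of these letters. Such matches describe the letters only and are not evidence of binding.

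Reads counted in genes ranged over the libraries from 8887861 to 32722293, and control replicate 3 was the smallest. This library stood apart from the other controls: it had the highest normalised count of all 9 members among the controls and the highest summed count of 18 enterocyte markers of all 9 libraries (268759, against 68748 to 173398 in the other 8), so the results for single members are also given without it. Genes of other lineages were low. Leukocyte markers (11 of 12 listed were in the table) summed to 113.4 to 224.7 normalised counts per library, endothelial markers (5 of 5) to 32.79 to 86.1, and pancreatic acinar markers (8 of 8) to 0.0 to 70.96. Of the leukocyte markers, Cd4 was at 0 in 7 and Nkg7 at 0 in 8 of the 9 libraries. Ptprc, Cd79a, Itgam and Lyz2 had reads in every library, with at most 77 raw counts in any. The remaining leukocyte markers were at 0 in 3 to 7 libraries. Stromal markers (8 of 8) summed to 187.6 to 677.5, most of it Vim. At 18 h edgeR called Vim higher (log2 fold change of 0.76 ± 0.21, adjusted p of 0.0435). The other 3 tested stromal markers were fitted lower there and not called, among them Pdgfrb with means of 26.13 against 54.56. Vim had means of 350.2 in controls, 594.9 at 18 h and 140.2 at 72 h. At 72 h against 18 h, edgeR called 1 of 4 tested stromal markers lower and 1 of 2 tested endothelial markers higher, beside 10.2% of all genes. Endothelial sums were 71.19 to 78.45 in controls, 32.79 to 43.12 at 18 h and 60.51 to 86.1 at 72 h. The part of such cells in the results was not tested. The members themselves summed to 120782 to 446018.

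Values below are the deposited normalised counts, which are raw counts divided by 1 size factor per library, in the order of replicates 1, 2 and 3. They compare a gene between libraries and not genes with each other, since a longer transcript yields more reads.

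Lct encodes lactase, which splits milk sugar. Its normalised counts were 8936, 4738 and 24703 in controls, 4544, 1577 and 2314 at 18 h and 4338, 10143 and 1990 at 72 h. The 3 libraries at 18 h all lay below the 3 controls, with means of 2812 ± 1545 against 12793 ± 10526 (SD, n = 3 each), whereas the 72 h libraries overlapped both other groups.

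Sis encodes sucrase-isomaltase, which splits sucrose and the branch points of starch products. Controls gave 57590, 44063 and 94023, the 18 h libraries 66536, 66860 and 101608, and the 72 h libraries 39483, 44849 and 27554. All 72 h values lay below all 18 h values, with means of 37295 ± 8853 and 78335 ± 20156 (SD, n = 3 each), and the controls, with a mean of 65226 ± 25840, overlapped both.

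Mgam encodes maltase-glucoamylase, which releases glucose from the ends of starch chains. It measured 70864, 53574 and 130205 in controls, 81543, 76817 and 105564 at 18 h and 53421, 66919 and 44487 at 72 h. As for Sis, the 72 h libraries all lay below those at 18 h.

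Treh encodes trehalase, which splits the sugar of fungi and insects. It was measured at 1016, 438.5 and 1838 in controls, 894.1, 742.0 and 1188 at 18 h and 640.6, 1280 and 462.1 at 72 h. Its groups overlapped throughout, and the control libraries spanned the values of both other groups.

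Anpep encodes aminopeptidase N, which removes neutral residues from the amino end of peptides. It reached 69244, 42135 and 128971 in controls, 82799, 59128 and 94589 at 18 h and 50951, 61640 and 28929 at 72 h. All groups overlapped, those at 18 and 72 h only through 72h-αGal replicate 2, which lay just above the lowest 18 h library.

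Enpep encodes glutamyl aminopeptidase, which removes acidic residues. Its counts were 6782, 4555 and 14397 in controls, 8966, 7847 and 11569 at 18 h and 5628, 6074 and 3375 at 72 h. The 72 h libraries lay below all 18 h libraries, with means of 5026 ± 1446 and 9461 ± 1910 (SD, n = 3 each).

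Dpp4 encodes dipeptidyl peptidase 4, which removes dipeptides and inactivates incretin hormones. It was measured at 4865, 3771 and 7094 in controls, 5311, 4313 and 5497 at 18 h and 3916, 4941 and 3214 at 72 h, with a coefficient of variation (SD over mean) of 32.3%, 12.6% and 21.6%. The first and second of these were the lowest of the 9 members, and its groups overlapped.

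Ace encodes angiotensin-converting enzyme, a peptidase of vessel walls and of the brush border. Its counts were 7346, 4512 and 20854 in controls, 6080, 3184 and 5060 at 18 h and 4959, 10773 and 3035 at 72 h. Control replicate 3 was the highest library and 72h-αGal replicate 2 the next, the same order as for Lct. An antisense transcript, Gm11651, shares 952 bases (17.0%) of the Ace exons and held 62 counts over all libraries. The strand setting of the counting was not given, so reads there may have been assigned to either gene or to neither.

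Alpi encodes intestinal alkaline phosphatase, which also removes phosphate from bacterial lipopolysaccharide. It gave 22883, 11534 and 23931 in controls, 15094, 12328 and 34174 at 18 h and 12513, 17053 and 7736 at 72 h. Here 18h-αGal replicate 3 was the highest library, and the groups overlapped. Its transcripts contain 2288 stretches of 50 bases, of which 55 recur in another gene, chiefly in its paralogue Akp3.

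**Figure D1:**
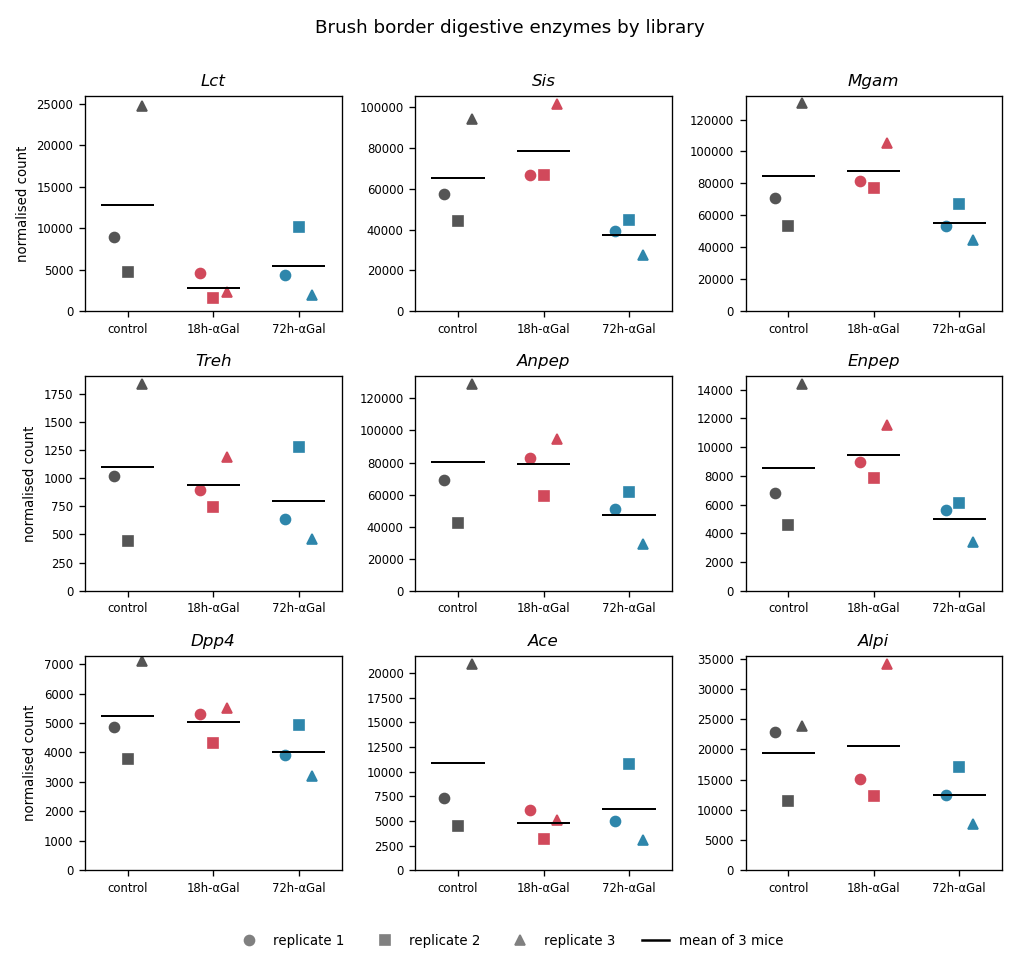
Normalised count (vertical axis, starting at 0) of each of the 9 enzymes in every library, by group (control, 18h-αGal, 72h-αGal); symbols give the replicate and bars the mean of 3 mice. Lct at 18 h lies below every control, and Sis, Mgam and Enpep at 72 h lie below every 18 h library, while control replicate 3 is the highest control for all 9.

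To ask whether NKT activation changed these transcripts by 18 h, 18h-αGal was compared with control by the quasi-likelihood test of edgeR, with p adjusted over all 18933 genes by the Benjamini-Hochberg method. Of the 9 members, 0 were called at an adjusted p under 0.05, where 5.96% of all genes were called. DESeq2 and limma-voom also called 0. At an unadjusted p under 0.05, 1 member passed (Lct), beside 20.8% of all genes, and 3 passed without control replicate 3. Replicates lay fully apart for 1 member (Lct, lower), beside 23.8% of all genes in either direction, so the members' counts were not above the background. The median log2 fold change of the members was -0.01, against -0.03 over all genes, and 0.36 without that library.

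The member farthest from 0 at 18 h was Lct, at -2.16 ± 0.88 (log2 fold change ± SE; adjusted p of 0.232). Over the 18 alternative analyses its adjusted p ranged from 0.0634 to 0.466. Without control replicate 3 the log2 fold change was -1.28. Ace followed at -1.17 ± 0.71 (adjusted p of 0.428), and at -0.31 without that library. Sis was at 0.27 ± 0.30, and the other 6 members lay between -0.20 (Treh) and 0.15 (Enpep), with adjusted p from 0.896 to 0.993. Leaving out control replicate 3 placed these 7 members between 0.22 (Dpp4) and 0.74 (Enpep), all fitted higher than control. Treh, Anpep and Dpp4, fitted lower with all libraries, thereby changed sign, as they also did with limma-voom on all libraries.

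At 72 h all 9 members were fitted below the control, from -0.36 ± 0.22 (Dpp4) to -1.20 ± 0.85 (Lct), with a median log2 fold change of -0.75 against 0.00 over all genes, and of -0.17 without control replicate 3. None of the 9 was called by edgeR (adjusted p from 0.826 to 0.961), nor by DESeq2 or limma-voom, where 0.0264% of all genes were called by edgeR. At an unadjusted p under 0.05, 1 member passed, Sis at -0.79 ± 0.30 (adjusted p of 0.826), beside 5.94% of all genes, and no member had replicates fully apart, beside 12.7% of all genes. Mgam lay at -0.61 ± 0.31, Anpep at -0.75 ± 0.46, Enpep at -0.75 ± 0.44, Alpi at -0.63 ± 0.51, Treh at -0.44 ± 0.57 and Ace at -0.78 ± 0.71. Without control replicate 3 the log2 fold changes shrank to between -0.46 (Alpi) and 0.13 (Treh), with Sis at -0.44 and Lct at -0.31, and Ace (0.09) and Treh turned higher.

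The comparison of 72h-αGal with 18h-αGal does not use the control libraries for its fold change. Here Sis lay at -1.06 ± 0.30 (adjusted p of 0.0641), Enpep at -0.91 ± 0.44 (0.276), Anpep at -0.73 ± 0.46 (0.393), Alpi at -0.71 ± 0.51 (0.462), Mgam at -0.67 ± 0.31 (0.233), Dpp4 at -0.32 ± 0.22 (0.412) and Treh at -0.24 ± 0.57 (0.859). Lct and Ace lay on the other side, at 0.96 ± 0.85 (0.569) and 0.39 ± 0.71 (0.806). Again 0 of the 9 were called by edgeR, where 10.2% of all genes were called, and 1 passed at an unadjusted p under 0.05, beside 24.3% of all genes. Sis, Mgam and Enpep had replicates fully apart, all lower at 72 h, which is 3 of 9 members beside 16.3% of all genes lower and 32.8% in either direction. The median log2 fold change of the members was -0.67, against 0.05 over all genes.

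Sis was close to the threshold in this comparison. DESeq2 and limma-voom each called 1 member, Sis, with adjusted p of 0.0244 and 0.00834, and over the 18 alternatives its adjusted p was under 0.05 in 7 and ranged from 0.00714 to 0.211. Its log2 fold change was -0.83 without 18h-αGal replicate 3 and -0.89 without 72h-αGal replicate 3. Mgam passed in 2 alternatives and Enpep in 1. Without control replicate 3, edgeR called 2 members, Sis and Mgam.

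**Figure D2:**
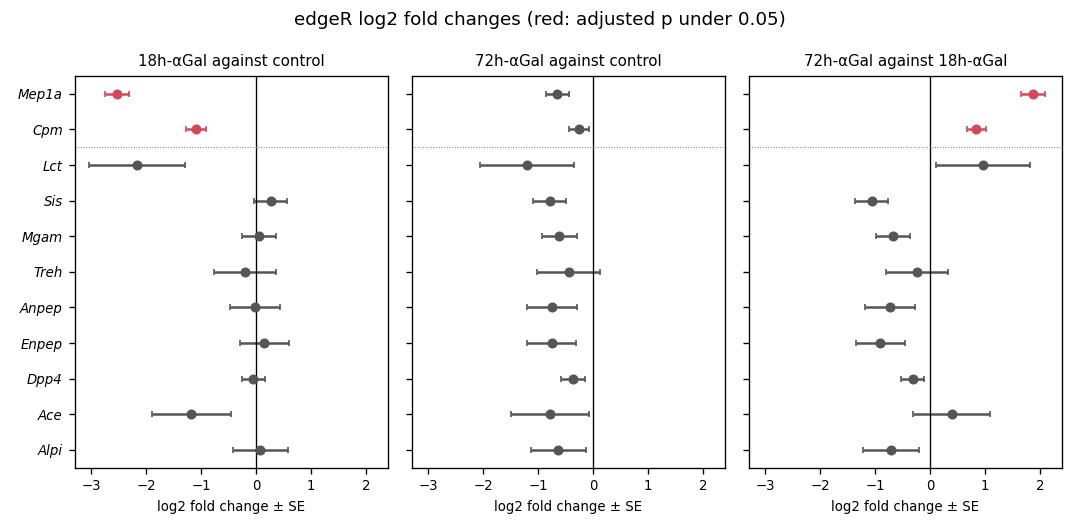
edgeR log2 fold change (horizontal axis; points, with bars of 1 standard error) of the 9 enzymes, below the dotted line, and of Mep1a and Cpm, above it, in the 3 comparisons; red marks an adjusted p under 0.05. No member is red in any panel, Lct and Ace lie to the left at 18 h, and all 9 lie left of 0 at 72 h against control.

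The level of each enzyme relative to the others was compared per kilobase of exon, the scale on which genes of different length can be set side by side. In controls the mean normalised count per kb was 19310 for Anpep, 8739 for Sis, 8322 for Alpi, 7018 for Mgam, 1997 for Lct, 1951 for Ace, 1102 for Enpep, 597.4 for Dpp4 and 535.9 for Treh. Only Mgam and Lct, of neighbours in this order, had control ranges that did not overlap (4430 to 10766 against 739.7 to 3856), and the other neighbours overlapped across libraries. Within each library, Anpep exceeded Sis and Enpep exceeded Dpp4 in all 9.

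Shares of the level per kb summed over the 9 transcripts were then compared. Anpep held 38.1% ± 2.58 in controls, 39.0% ± 3.88 at 18 h and 38.0% ± 2.36 at 72 h (SD, n = 3 each). Sis held 18.3% ± 2.33, 21.5% ± 2.27 and 17.2% ± 1.79, and its 18 h range (19.4% to 23.9%) lay above that at 72 h (15.3% to 18.9%). Alpi varied more, from 13.5% to 22.9% over the 9 libraries. Lct held 3.61% ± 1.3 in controls, 0.921% ± 0.538 at 18 h and 2.62% ± 1.27 at 72 h, and the 18 h range (0.567% to 1.54%) lay below that of both other groups. Ace followed the same course, at 3.57% ± 1.17, 1.77% ± 0.517 and 3.54% ± 1.2, with 18 h values of at most 2.36% against at least 2.78% elsewhere. These shares were singled out after their values were seen and were not tested.

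**Figure D3:**
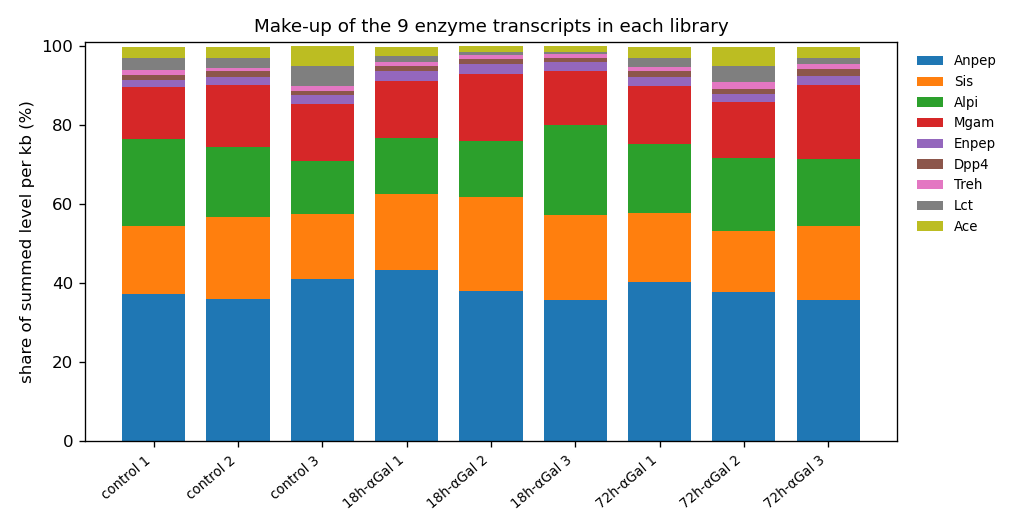
Share (vertical axis, percent) of the level per kb summed over the 9 enzymes that each enzyme held in every library (horizontal axis). Anpep, Sis, Alpi and Mgam make up most of each bar, and the Lct and Ace segments at the top are thinnest in the 3 libraries at 18 h.

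A ratio of transcripts within a library does not depend on how libraries were scaled. Lct relative to Sis was 0.155, 0.108 and 0.263 in controls, 0.0683, 0.0236 and 0.0228 at 18 h and 0.11, 0.226 and 0.0722 at 72 h. Ace relative to Anpep was 0.106, 0.107 and 0.162 in controls, 0.0734, 0.0539 and 0.0535 at 18 h and 0.0973, 0.175 and 0.105 at 72 h. For both ratios the 18 h libraries lay below every other library, with or without control replicate 3. Dpp4 relative to Sis was 0.0845, 0.0856 and 0.0755 in controls and 0.0992, 0.11 and 0.117 at 72 h, above every control. Mgam relative to Sis overlapped between control and each treated group, at 1.23, 1.22 and 1.38 in controls, 1.23, 1.15 and 1.04 at 18 h and 1.35, 1.49 and 1.61 at 72 h. These ratios were likewise chosen after the values were seen.

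Across the 9 libraries, the log2 levels of the members varied together, as a description of libraries that share their scaling and their groups. The 36 pairs had a median Pearson correlation of 0.825, and 11 pairs exceeded 0.9. Mgam and Enpep were the most alike (0.983), and Anpep and Dpp4 reached 0.98. Lct stood out, with 0.231 for Sis, the lowest of all pairs, and 0.949 for Ace. The genes most like each member among 11148 genes were Kitl for Lct (0.959, ahead of Ace), Bpnt1 for Sis (0.998), Tm6sf2 for Mgam (0.983), Podn for Treh (0.971), Slc3a2 for Anpep (0.992), Anxa2 for Enpep (0.991), Agrn for Dpp4 (0.982), Slc30a10 for Alpi (0.98) and Trim38 for Ace (0.991). Trim38 was also among the 3 genes most like Lct (0.948), and Mep1b, a subunit of the brush border protease meprin, was among the 3 most like Anpep (0.985).

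The members moved with other transcripts of mature enterocytes. The summed normalised count of the 18 enterocyte markers, which include apolipoproteins and fatty acid binding proteins, was 109535 to 268759 in controls, 115787 to 173398 at 18 h and 68748 to 124806 at 72 h, beside 169321 to 446018, 232797 to 361563 and 120782 to 223671 for the members. With the mean log2 level of these markers, the members correlated from 0.77 (Sis) to 0.93 (Dpp4) over the 9 libraries. The summed count of 8 crypt stem cell markers moved otherwise. It was 47274 to 90898 in controls, 14907 to 44705 at 18 h and 61308 to 95224 at 72 h. All 8 were fitted lower at 18 h, 4 of them at an unadjusted p under 0.05. edgeR called 0 of the 8 against control at either time, and 1 higher at 72 h than at 18 h. With the mean log2 level of these 8, Sis correlated at -0.847 but Lct at 0.179. Among secretory lineages, enteroendocrine markers moved too. These 8 summed to 8296 to 11224 in controls, 11769 to 18987 at 18 h and 3711 to 5718 at 72 h. edgeR called 3 of them higher at 18 h, 5 lower at 72 h and 6 lower at 72 h than at 18 h. The 5 at 72 h, among them Chga (-1.13 ± 0.17, adjusted p of 0.039), were all the genes called in that comparison. Of 4 tested tuft cell markers, 1 was called higher at 18 h (Avil) and 2 lower at 72 h than at 18 h (Avil and Trpm5). Of 7 goblet cell markers, 1 was called higher at 18 h and 0 in the other comparisons. Of 7 Paneth cell markers, 0 were called in any comparison. The sums of the goblet and of the Paneth cell markers overlapped between all groups. Of all genes, edgeR called 5.96% at 18 h, 0.0264% at 72 h and 10.2% between the times, in either direction. In bulk RNA, fewer mature enterocytes among the sorted cells and less enzyme RNA per enterocyte cannot be told apart, and the part of cell make-up in the differences above was not tested. Of the 18 enterocyte markers, 0 were called by edgeR in any comparison. At an unadjusted p under 0.05, 3 passed at 18 h, 4 at 72 h and 6 between the times. Of all genes, 20.8%, 5.94% and 24.3% passed that level in the same comparisons. At 18 h DESeq2 called 3 of the markers, Gsta1, Reg1 and Reg3b, and limma-voom 2, Reg1 and Reg3b, all lower. Between the times DESeq2 called Gsta1 higher and Khk lower, and limma-voom called Reg1 higher and Clec2h, Krt20 and Mttp lower. Against control at 72 h both called 0, with 5 (DESeq2) and 10 (limma-voom) of 18 at an unadjusted p under 0.05. The shares of all genes at that level with these tools are not reported here. The markers' median log2 fold change was -0.18 at 18 h, -0.71 at 72 h and -0.44 between the times, and without control replicate 3 it was 0.23 at 18 h and -0.30 at 72 h.

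**Figure D4:**
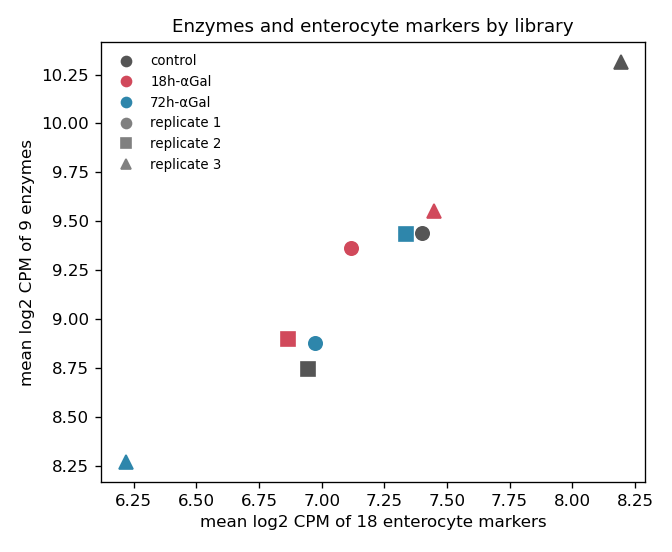
Mean log2 CPM (count scaled to the library's total) of the 9 enzymes (vertical axis) against that of the 18 enterocyte markers (horizontal axis), 1 point per library, coloured by group with symbols for the replicate. The libraries fall along a rising line from 72h-αGal replicate 3 (6.22 and 8.27) to control replicate 3 (8.19 and 10.31), and the groups overlap along it.

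Other hydrolases of the brush border were listed beside the members to see whether the enzymes as a class behaved alike. Of 20 listed, 19 were in the table and 18 were tested, and Folh1, with reads in 1 library only, was not. At 18 h edgeR called 2 of the 18, both lower, where 2.69% of all genes were called lower. Mep1a, a subunit of the protease meprin, had normalised counts of 972.6, 697.7 and 703.7 in controls, 120.4, 120.4 and 173.9 at 18 h and 452.9, 581.9 and 468.8 at 72 h. It fell by 2.53 ± 0.22 on the log2 scale at 18 h (adjusted p of 4.08e-05), or 5.76-fold. Cpm, carboxypeptidase M, which removes basic residues from the carboxyl end, had 741.8, 797.3 and 701.3 in controls, 415.5, 309.9 and 316.0 at 18 h and 531.7, 696.9 and 635.1 at 72 h. It fell by 1.09 ± 0.18 on the log2 scale at 18 h (adjusted p of 0.00267). In both genes the 3 groups did not overlap, and the 72 h libraries lay between the others.

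Between 18 and 72 h the same 2 genes rose, Mep1a by 1.88 ± 0.21 (adjusted p of 0.000151) and Cpm by 0.84 ± 0.18 (0.00819) on the log2 scale, where 4.18% of all genes were called higher. Both calls held in all 18 alternatives of each of these comparisons, unlike any member's. Mep1a at 72 h lay at -0.65 ± 0.20 against control with an adjusted p of 0.809, and Cpm at -0.25 ± 0.18 (0.891), so neither was called there. The partner subunit Mep1b lay at -0.24 ± 0.52 at 18 h (0.854), -0.97 ± 0.52 at 72 h (0.881) and -0.73 ± 0.52 between the times (0.462), the course of most members.

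Beside Mep1a and Cpm, edgeR called no tested hydrolase in any comparison. Vnn1, a pantetheinase, was nearest at 18 h, at -1.46 ± 0.42 (adjusted p of 0.0604), with 162.7, 166.1 and 582.5 normalised counts in controls and 93.95, 104.2 and 125.6 at 18 h. Mme, neprilysin, lay at -0.99 ± 0.38 (0.192) and Akp3, the second intestinal alkaline phosphatase, at -0.71 ± 0.71 (0.655). The median of the 18 was -0.42 at 18 h, -0.69 at 72 h and -0.16 between the times, and without control replicate 3 it was -0.01 at 18 h and -0.32 at 72 h. In the fit of all libraries 17 of 18 were fitted below control at 72 h, Enpp3 being the exception. DESeq2 also called Vnn1, and limma-voom Mme, lower at 18 h, and edgeR called Vnn1 higher at 72 h than at 18 h without control replicate 3 and with only the 2 groups.

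**Figure D5:**
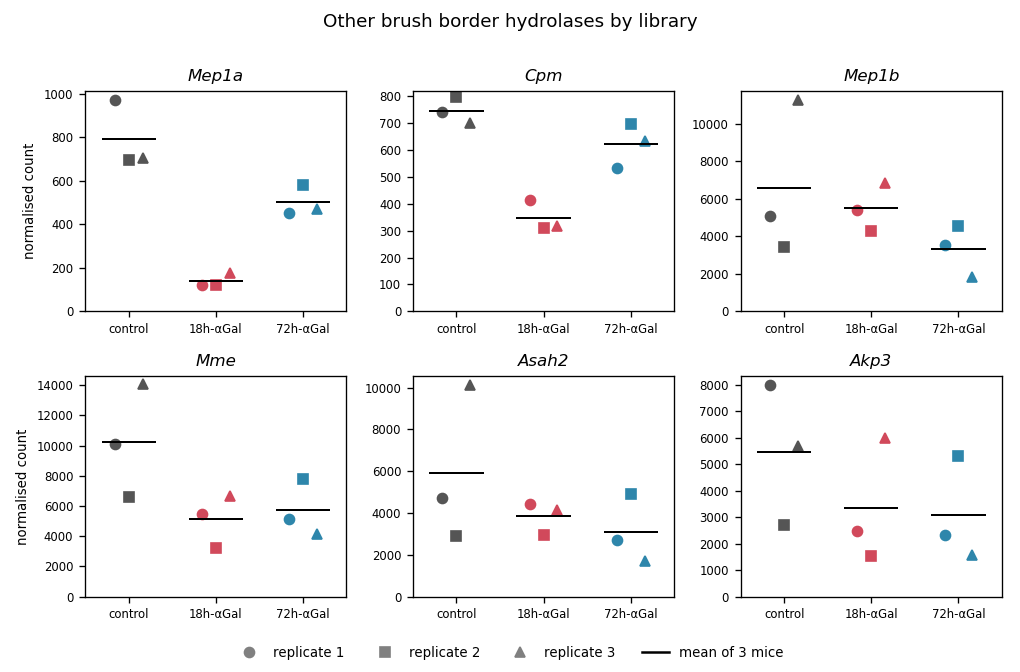
Normalised count (vertical axis, starting at 0) of 6 other brush border hydrolases in every library, by group; symbols give the replicate and bars the mean of 3 mice. Mep1a and Cpm separate the 3 groups with the lowest values at 18 h, whereas Mep1b, Mme, Asah2 and Akp3 overlap between control and each treated group.

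The scaffold of the microvillus was measured with 16 genes, of which 15 were tested. edgeR called none against control at either time. At an unadjusted p under 0.05, 0 and 1 of the 15 passed at 18 and 72 h, beside 20.8% and 5.94% of all genes. At 18 h limma-voom called Pls1 higher, and without control replicate 3 edgeR called Pls1 and Vil1 higher, with 8 of 15 at an unadjusted p under 0.05. Without that library edgeR also called more genes of the whole table, and its share at the unadjusted level is not reported here. Between 18 and 72 h edgeR called 1 of the 15, where 10.2% of all genes were called. Pls1, plastin 1, which bundles actin in the microvillus core, fell by 1.38 ± 0.30 on the log2 scale (adjusted p of 0.0227), from a mean of 16968 to 6472 normalised counts. Vil1, villin, the other main bundling protein, lay at -0.86 ± 0.25 (0.0629), with 21022 to 27837 at 18 h and 9645 to 15314 at 72 h. DESeq2 called 4 between the times (Ezr, Nherf1, Pls1 and Vil1), limma-voom 3 (without Ezr) and edgeR with only the 2 groups 5 (also Anks4b), all lower at 72 h. The list's median log2 fold change was 0.13 at 18 h, -0.37 at 72 h and -0.50 between the times, and without control replicate 3 it was 0.39 at 18 h and -0.11 at 72 h.

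Of 9 transporters that take up the products of these enzymes, edgeR called 1, at 18 h and again between the times. Of all genes, 5.96% and 10.2% were called in these comparisons. Slc1a1, a glutamate and aspartate transporter, was lower at 18 h (1003 to 1232 normalised counts, against 1414 to 1819 in controls; log2 fold change of -0.52 ± 0.14, adjusted p of 0.0379) and higher at 72 h than at 18 h (0.52 ± 0.14, 0.0246). Its call at 18 h was lost with only the 2 groups compared and with the replicate block. Slc5a1, the sodium-coupled glucose and galactose transporter, lay at 0.38 ± 0.38 at 18 h (0.644), -0.65 ± 0.38 at 72 h (0.885) and -1.03 ± 0.38 between the times (0.146). Slc2a2, the glucose exporter of the basal membrane, followed with 0.18 ± 0.41 (0.862), -0.96 ± 0.41 (0.841) and -1.14 ± 0.42 (0.147). limma-voom also called Slc6a20a lower at 18 h and Slc5a1 and Slc2a2 lower at 72 h than at 18 h, and edgeR called Slc5a1 there without control replicate 3 and with only the 2 groups.

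The transcription regulators of enterocyte genes included members of the factor families whose motifs were searched above. Hnf4g was lower at 72 h than at 18 h (log2 fold change of -0.68 ± 0.19, adjusted p of 0.043). Hnf4a, Gata4 and Klf5 were not called against control at either time. They lay close to 0, with Hnf4a at 0.06 ± 0.10 at 18 h (0.798) and 0.01 ± 0.10 at 72 h (0.999), Gata4 at -0.06 ± 0.13 and -0.08 ± 0.13 (0.868 and 0.969), and Klf5 at -0.04 ± 0.10 and 0.05 ± 0.10 (0.876 and 0.983). The summed count of the 16 listed regulators ranged from 85502 to 109738 over the 9 libraries.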

How the data were processed

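RNA was measured in 9 libraries of 1 mouse each, 3 per group, grouped by the labels. The authors made strand-directional, ribosomal RNA-depleted libraries and read them at 100 bp. Per the labels' processing notes the tools were HISAT2, featureCounts of Subread and DESeq2 1.42.0 on GRCm38 (mm10), while the study's methods name GRCm39. The strand setting and the annotation release were not given in the sources used here. The authors deposited raw read counts per gene and a normalised signal, which equalled the count divided by 1 size factor per library (largest relative difference 5.1e-15). This corrects for neither length nor GC content. Positions and promoters came from RefSeq GRCm38.p6, and symbols and exon lengths (union of exons) from GENCODE vM39 on GRCm39, which matched 28480 of 29288 identifiers, holding 98.4% of the counts. No protein sequences were used here.

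Raw counts were tested with edgeR 4.0.16 in R 4.3.3: filterByExpr kept 18933 genes, scaling was by TMM (a trimmed mean of log ratios), and all 9 entered 1 robust quasi-likelihood fit with 3 contrasts. The p-values were adjusted by Benjamini-Hochberg over all 18933 genes and called under 0.05. The script was tested on simulated data. Alternatives were DESeq2 1.42.0, limma-voom (limma 3.58.1), median-of-ratios and upper-quartile scaling, no filter or at least 10 counts in every library, no robust spread, only the 2 groups compared, a replicate block and leaving out each library. A floor of 3 counts was 0.0917 to 0.338 CPM per library and covers counting error only, because without molecular identifiers several reads can stem from 1 molecule. P-values measure the spread between mice within this experiment. Log2 CPM used a prior count of 2, and correlations over 9 libraries carry no test.

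The members and gene lists were chosen with earlier results of these data known. All members were named, as was any other brush border hydrolase; of other lists, called genes and up to 4 more with the highest mean count; and for each member the 3 genes (mean count of at least 100) whose log2 CPM correlated best with it. Genes named for a call by another tool or fit only (such as Gsta1, Reg1 and Reg3b), Pdgfrb and the ratios between members were chosen after their values were seen. Some listed genes, among them Mgam2, were not analysed here, and some results are not reported here. Replicate numbers recur in each group, but the mice differ, and the labels describe no pairing.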

Additional observations from a re-analysis of the deposited data

Results flagged for a closer look

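A pair of further hydrolases had effects that differed between the times after αGalCer, by the direct contrast of 72h-αGal with 18h-αGal. The log2 fold change against control was -2.53 at 18 h and -0.65 at 72 h for Mep1a, a difference of 1.88 (edgeR adjusted p of 0.000151). For Cpm it was -1.09 and -0.25, a difference of 0.84 (adjusted p of 0.00819). The 3 libraries at 72 h were higher than the 3 at 18 h for both genes. Both comparisons use the same 3 control libraries, which cancel in the difference. No member met this criterion.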

How the results depend on the processing

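With the 18 alternatives, no member was called against control at either time, and Mep1a and Cpm kept their calls at 18 h and between the times. Between 18 and 72 h the number of members called (0 by edgeR) was 1 with DESeq2, limma-voom, no robust spread and at least 10 counts in every library, 3 with only the 2 groups compared, and 0 to 2 when 1 library was left out. The genes called at 18 h numbered 1720 with DESeq2, 593 with only the 2 groups compared and 432 (without 18h-αGal replicate 2) to 1556 (without control replicate 3) when 1 library was left out. At 72 h they numbered 31 with DESeq2, 13 with no filter, 3 with no robust spread and 0 (without control replicate 1, 72h-αGal replicate 1 or 72h-αGal replicate 3) to 20 (without control replicate 3) when 1 library was left out, and between the times 831 (without 72h-αGal replicate 3) to 2593 (without control replicate 3). Small effects of members at 18 h changed sign, none past the threshold: with limma-voom Treh (0.101), Anpep (0.152), Dpp4 (0.039) and Alpi (-0.011), and over the fits with 1 library left out Mgam (-0.178 to 0.50), Treh (-0.579 to 0.365), Anpep (-0.315 to 0.502), Enpep (-0.146 to 0.739), Dpp4 (-0.231 to 0.223) and Alpi (-0.489 to 0.346). At 72 h those fits ran from -0.958 to 0.13 for Treh and from -1.421 to 0.086 for Ace, above 0 only without control replicate 3. Between the times they ran from -0.76 to 0.036 for Treh (above 0 without 72h-αGal replicate 3) and from -0.248 to 0.722 for Ace (below 0 without 72h-αGal replicate 2). The causes were not tested.

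With a replicate block, genes called numbered 781 at 18 h, 1 at 72 h and 1371 between the times, no member was called, and Anpep at 18 h was at 0.034. Same-numbered libraries deviated from their group means with correlations of -0.15 to 0.115. With 3 libraries per mean, such values cannot show whether same-numbered samples shared their handling, which was not tested. Depth limited no member, since each had at least 462 reads in every library.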
